A study of Mus musculus with 14 samples.

Results

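The 10 genes described here belong to the glutathione system and its main inducible regulator: the transcription factor gene Nfe2l2 (Nrf2), Gclc and Gclm, Gpx2 and Gpx3, and the glutathione S-transferase genes Gsta3, Gsta4, Gstm1, Gstm5 and Gsto1. They were chosen by name, 10 of 17149 genes tested, and a gene with several probe sets is represented by the one of highest mean log2 signal over the 14 arrays. The 10 genes have 18 probe sets, all of which passed the filter of a signal above 20 on at least 1 array.

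Expression was measured in 4 mouse prostate cell populations, each sample on an Affymetrix array of its own. UGE is the epithelium of the urogenital sinus, from which the prostate buds, taken from C57BL/6 embryos of day 16 (3 arrays). It was isolated by tissue and not by Sca-1. The adult cells came from the proximal prostatic ducts of male C57BL mice of 6 to 8 weeks by the labels, and were sorted by the surface antigen Sca-1 into Sca-1Hi (3 arrays, the study's adult stem cells), Sca-1Lo (4 arrays, its transit-amplifying cells) and Sca-1Neg (4 arrays, the most differentiated cells). No animal carried a transgene or received a treatment that the labels name. The labels do not say whether samples of a population came from separate animals, so p-values measure the spread between these samples.

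Glutathione is the abundant small thiol of the cell. Glutamate-cysteine ligase makes its precursor, glutathione peroxidases spend it on peroxides, and glutathione S-transferases couple it to reactive compounds. Nrf2 is held in the cytoplasm and marked for degradation by Keap1, and under oxidative or electrophilic stress it enters the nucleus, pairs with a small Maf protein and binds antioxidant response elements in front of many of these genes. Since Nrf2 is controlled largely as a protein, its mRNA level is not a measure of its activity.

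Upstream sequences of the genes are shown first, because the antioxidant response element is the feature by which Nrf2 reaches its targets. RefSeq promoter windows (GRCm38.p6, 250 bases before to 50 after the listed start) were matched for 8 of the 10 genes, and Gclc and Gsta4 had no entry. The core of the element, TGACNNNGC, read on both strands, was found in the windows of 4 of these 8 genes, against 12.4% of all 32851 windows. The 4 sequences below are those windows up to the annotated gene, 5′ to 3′ in the direction of transcription, with the core in capitals. They lie at chr2:75704664-75704913 on the minus strand (Nfe2l2), chr3:122245307-122245486 (Gclm), chr1:21240335-21240564 (Gsta3) and chr3:107895604-107895853 (Gstm5), the last 3 on the plus strand.
Nfe2l2: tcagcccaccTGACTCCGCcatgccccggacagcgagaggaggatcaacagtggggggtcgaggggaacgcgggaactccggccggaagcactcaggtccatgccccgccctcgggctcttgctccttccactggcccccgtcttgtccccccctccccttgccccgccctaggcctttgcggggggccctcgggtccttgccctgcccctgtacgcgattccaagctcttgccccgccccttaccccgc
Gclm: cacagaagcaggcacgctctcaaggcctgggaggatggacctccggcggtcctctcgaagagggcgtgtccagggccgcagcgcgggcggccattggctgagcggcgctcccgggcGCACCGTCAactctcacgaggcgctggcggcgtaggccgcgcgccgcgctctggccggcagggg
Gsta3: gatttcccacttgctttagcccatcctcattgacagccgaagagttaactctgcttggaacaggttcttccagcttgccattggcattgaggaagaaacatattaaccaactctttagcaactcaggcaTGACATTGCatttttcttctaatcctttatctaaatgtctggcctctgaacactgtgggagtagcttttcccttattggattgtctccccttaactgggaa
Gstm5: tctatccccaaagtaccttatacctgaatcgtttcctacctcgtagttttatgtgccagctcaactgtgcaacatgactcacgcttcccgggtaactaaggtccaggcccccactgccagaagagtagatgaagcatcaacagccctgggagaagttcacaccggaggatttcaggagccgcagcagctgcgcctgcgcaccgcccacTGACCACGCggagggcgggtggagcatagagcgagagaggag

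The core began 240 bases before the listed start in Nfe2l2, 134 in Gclm (on the opposite strand), 121 in Gsta3 and 42 in Gstm5. For Gclm and Gsta3 the listed start lies inside the annotated gene. Their sequences above therefore stop after 180 and 230 of the 250 bases, short of that start. The AP-1 type motif TGANTCA was found in the window of Gstm5 alone among the 8, against 7.81% of all windows. The letters GCGTG, the core of the element bound by the aryl hydrocarbon receptor, stood in the windows of Gclm, Gstm1 and Gstm5, against 32.4% of all. The windows of Gpx2, Gpx3 and Gsto1 held none of these 3 motifs. Of the 4 genes with the antioxidant core, Gclm and Gsta3 were called in the comparisons below, while Gstm5 and the representative probe set of Nfe2l2 were not.

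Levels are linear PLIER signals, which have no absolute unit and are compared here only within a probe set. Log2 signals were tested with limma over all 41031 probe sets. A gene was called where the log2 difference of its populations exceeded 0.807 in size and its p, adjusted by the Benjamini-Hochberg method, was under 0.05. Values after ± are standard errors of log2 differences, and adjusted p-values are from limma, in that fit unless arrays left out, a subset or a block are named. Sca-1Neg enters 3 of the 6 comparisons and each other population also enters 3, so the comparisons are not independent of each other.

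The background of calls over all genes was high where UGE was involved. Against Sca-1Neg, 16.3% of genes were called higher and 12.9% lower in UGE, 6.11% and 5.21% in Sca-1Hi, and 1.68% and 0.828% in Sca-1Lo. UGE was called higher than Sca-1Hi for 15.8% and lower for 12.0% of genes, and higher than Sca-1Lo for 13.4% and lower for 12.2%. Sca-1Hi was called higher than Sca-1Lo for 0.0816% and lower for 0.0175%. Among the called probe sets, those with the higher signal in UGE made up 57.8% in the comparison with Sca-1Neg and 52.0% in that with Sca-1Lo. With the arrays centred on their 75th percentile these shares were 47.4% and 41.7%, and the median difference of all genes moved from 0.07 to -0.13 and from -0.04 to -0.22. In the comparison of UGE with Sca-1Hi that median moved from near 0 to -0.14.

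Against this background, the 10 genes divided by population. Against Sca-1Neg, 1 was higher (Gsta4) and 4 lower (Gclm, Gpx3, Gsta3, Gstm1) in UGE, 3 were higher in Sca-1Hi (Gsta3, Gsta4, Gsto1) and 1 in Sca-1Lo (Gsto1), with none lower in either. Against UGE, 5 were higher in Sca-1Hi (Gclm, Gpx3, Gsta3, Gstm1, Gsto1) and 4 in Sca-1Lo (Gclm, Gpx3, Gsta3, Gstm1). None was called between Sca-1Hi and Sca-1Lo by limma, where 3 of the genes had an unadjusted p under 0.05 (Gsta4 and Gsto1 toward Sca-1Hi, Gstm5 toward Sca-1Lo). In that comparison 4031 of all 41031 probe sets had such an unadjusted p. The median log2 difference of the 10 genes was -0.25 in UGE, 0.62 in Sca-1Hi and 0.58 in Sca-1Lo against Sca-1Neg, beside 0.07, 0.03 and 0.08 over all genes.

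**Figure D1:**
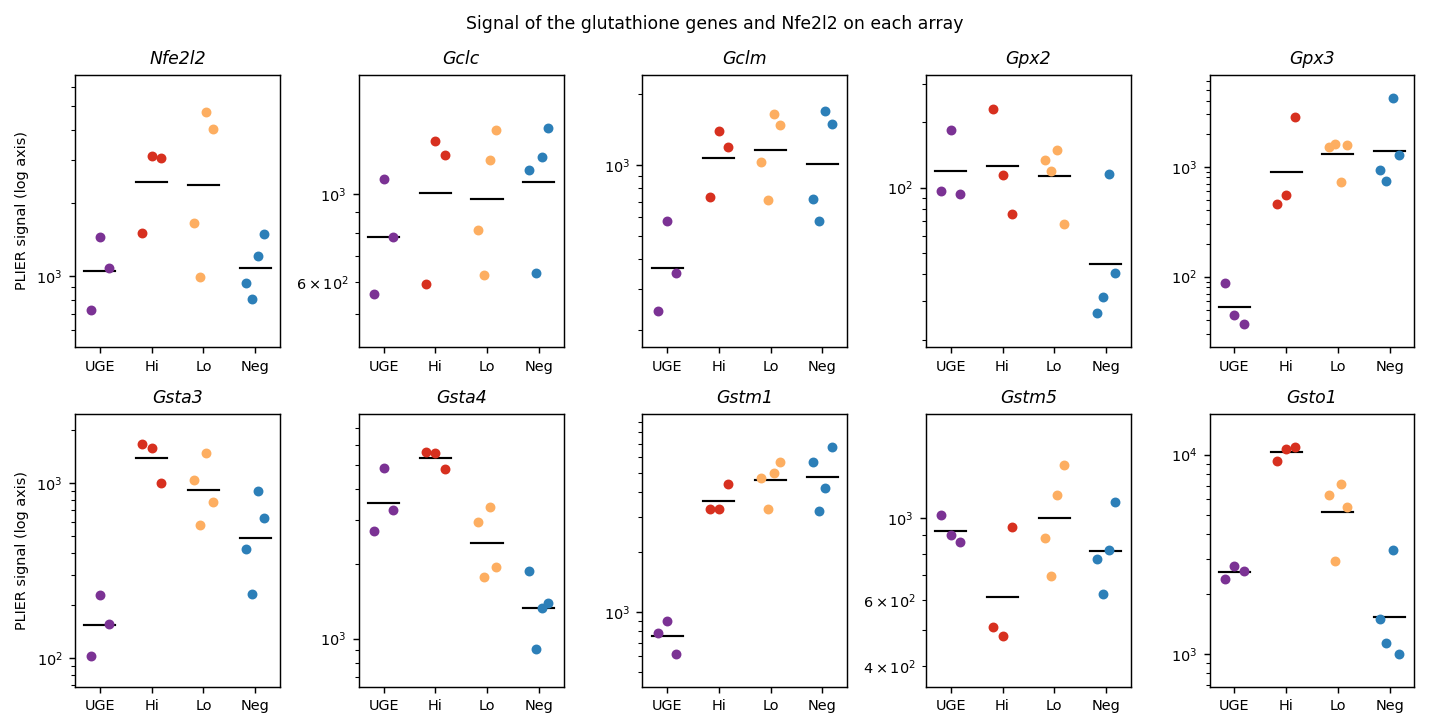
PLIER signal (log axis, a scale of its own in each panel) of the representative probe set of each gene, with 1 point an array, for UGE, Sca-1Hi (Hi), Sca-1Lo (Lo) and Sca-1Neg (Neg). Bars are geometric means. The 3 UGE arrays lie below all adult arrays for Gclm, Gpx3, Gsta3 and Gstm1, and the 3 Sca-1Hi arrays lie above all others for Gsto1.

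The markers of other cells moved with the populations. The sum of 14 leukocyte markers was 6861 to 61477 in Sca-1Neg, 2539 to 11154 in Sca-1Lo, 1295 to 2908 in Sca-1Hi and 1730 to 2761 in UGE, and all 14 were called lower in Sca-1Hi than in Sca-1Neg, with Ptprc, C1qc and Cx3cr1 at the floor of 20 in Sca-1Hi. The 6 endothelial markers summed to 7368 to 12866 in Sca-1Hi, 3336 to 8159 in Sca-1Lo, 412 to 846 in Sca-1Neg and 133 to 553 in UGE. The 6 smooth muscle and pericyte markers were highest in Sca-1Neg (24503 to 71486), and ran from 998 to 2778 in UGE. The 4 basal markers summed to at least 15172 in UGE and Sca-1Hi, 7165 to 23440 in Sca-1Lo and 785 to 6408 in Sca-1Neg, and the 8 secretory markers to at most 479 in UGE and at least 41787 in every adult array, with Pbsn, Svs2, Svs6 and Spink1 at the floor in UGE. Fibroblast markers overlapped between all populations, as 6 genes summing to between 4934 and 53570, but differed within each adult population by the study's own sample numbers, early (1, 2) against late (3 to 5). Their sum was 4934 on the early against 23458 and 43347 on the late Sca-1Hi arrays, 7588 and 13113 against 42997 and 53570 in Sca-1Lo, and 10225 and 10285 against 14803 and 34737 in Sca-1Neg. Within Sca-1Neg, array 3 had the lowest leukocyte sum (6861) and the highest basal sum (6408). The sum of 6 epithelial markers was 26357 on that array against at most 10878 on the other Sca-1Neg arrays. This epithelial sum was 23934 to 33127 in UGE, 16539 to 21747 in Sca-1Hi and 15001 to 22822 in Sca-1Lo. The 4 urothelial markers summed to 7039 to 9795 in UGE and to at most 5553 in the adult arrays. The log2 ratio of 3′ to 5′ Gapdh control signal, a measure of RNA integrity, was 3.07 to 3.48 in Sca-1Hi, 1.98 to 3.22 in Sca-1Lo, 1.66 to 2.75 in Sca-1Neg and 1.83 to 2.38 in UGE, and was higher on every late than on every early array of Sca-1Lo and Sca-1Neg. The same ratio for beta-actin overlapped between populations, at 1.59 to 2.77 in Sca-1Hi, 1.72 to 2.27 in Sca-1Lo, 1.17 to 2.11 in Sca-1Neg and 1.54 to 2.09 in UGE. The part of cell mixture and RNA quality in the values below was not tested, and in sorted bulk samples fewer cells of a type and less RNA per cell cannot be told apart. Ly6a, which encodes Sca-1, was not analysed here.

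**Figure D2:**
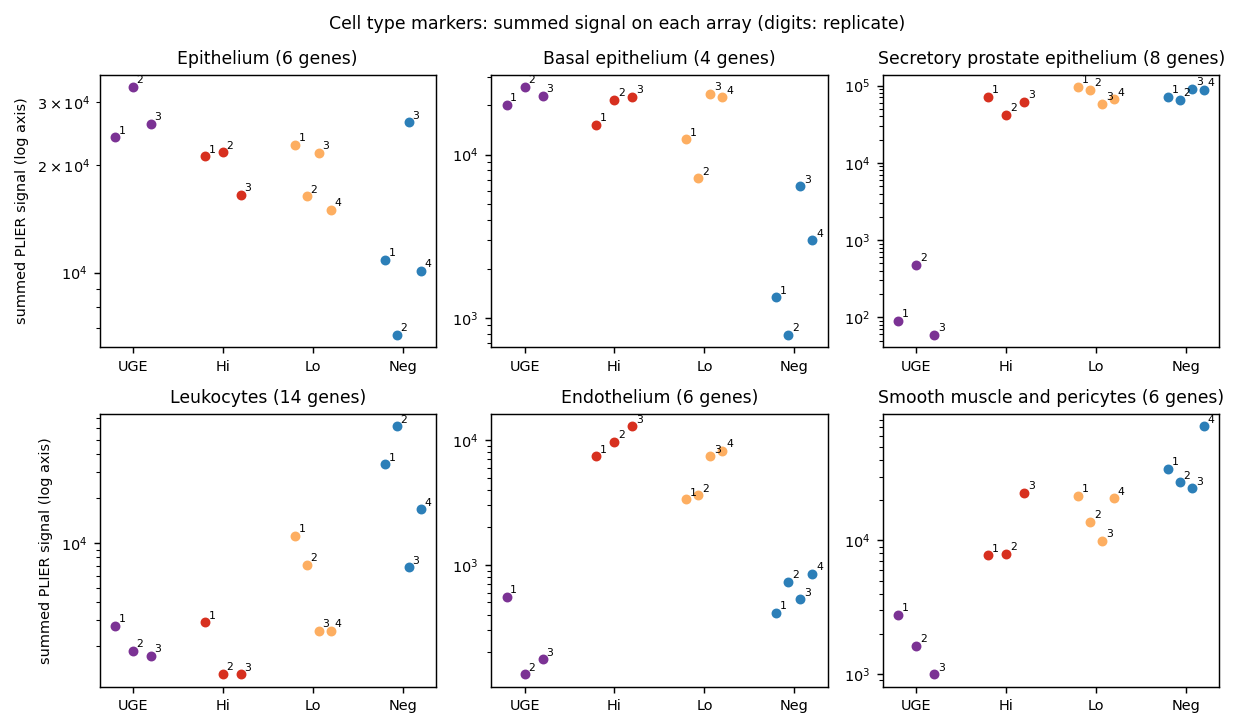
Summed PLIER signal (log axis) of 6 marker lists on each array, with the replicate number beside each point. Leukocyte markers are highest in Sca-1Neg, endothelial markers in Sca-1Hi and Sca-1Lo, and secretory markers are low in UGE alone.

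Nfe2l2, which encodes Nrf2 (chr2:75675513-75704663, GRCm38.p6), had signals of 727, 1453 and 1085 in UGE and 938, 809, 1216 and 1489 in Sca-1Neg. The Sca-1Hi arrays read 1506, 3131 and 3077, and the Sca-1Lo arrays 1653, 991, 4741 and 4038. Every Sca-1Hi array was above every Sca-1Neg and UGE array, while Sca-1Lo overlapped both. The log2 difference from Sca-1Neg was 1.17 ± 0.50 in Sca-1Hi (adjusted p = 0.141) and 1.13 ± 0.46 in Sca-1Lo (adjusted p = 0.285), and neither was called. UGE differed from Sca-1Hi by -1.22 ± 0.53 (adjusted p = 0.109) and from Sca-1Neg by -0.05 ± 0.50 (adjusted p = 0.954). In each adult population the arrays with late study numbers read higher than those with early numbers, as the fibroblast markers did, and the part of the latter was not tested. Of the early numbers Sca-1Hi has a single array, assumed in a fit to vary like the others. Within early and late numbers Sca-1Hi differed from Sca-1Neg by 0.79 and 1.21 and Sca-1Lo by 0.56 and 1.70, none of them called. With early and late numbers as a block in the adult arrays, Nfe2l2 was called higher in Sca-1Hi (0.98, adjusted p = 0.0403) and Sca-1Lo (1.13, adjusted p = 0.0426). What these numbers stand for is not stated. Set against all 3 UGE arrays, Nfe2l2 in UGE was at -0.52 from the early Sca-1Hi array (adjusted p = 0.454) and -0.29 from the early Sca-1Lo arrays (adjusted p = 0.563). It was called lower than in the late Sca-1Hi (-1.57, adjusted p = 0.00902) and Sca-1Lo arrays (-2.06, adjusted p = 0.00346).

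A second Nfe2l2 probe set, of low signal, gave another picture. All 3 UGE arrays lay at or below 20 (4.72 to 18.1), while the adult arrays read between 30.6 and 131. UGE was at least 2.63-fold lower than Sca-1Neg (adjusted p = 0.00842), at least 3.12-fold lower than Sca-1Hi (adjusted p = 0.00702) and at least 2.78-fold lower than Sca-1Lo (adjusted p = 0.00788). No difference between adult populations was called for it. The probe sets disagreed on whether UGE differed from Sca-1Neg.

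Glutamate-cysteine ligase makes the first and rate-limiting step of glutathione synthesis, with Gclc as its catalytic and Gclm as its modifier subunit. Gclc (chr9:77754535-77794489) was called in no comparison. Its signals ran from 561 to 1089 in UGE, 595 to 1358 in Sca-1Hi, 626 to 1449 in Sca-1Lo and 632 to 1464 in Sca-1Neg, and its largest difference, UGE against Sca-1Neg, was -0.46 with a 95% interval from -1.32 to 0.41. A second Gclc probe set was called in none either.

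Gclm (chr3:122245487-122267215) had signals of 242, 578 and 348 in UGE. Sca-1Hi read 733, 1391 and 1191, Sca-1Lo 1027, 711, 1636 and 1477, and Sca-1Neg 719, 581, 1684 and 1486. UGE lay below every adult array, by a margin of 578 against 581 at the closest, and the adult populations overlapped. The difference of UGE was -1.47 ± 0.44 from Sca-1Neg (adjusted p = 0.0252), -1.55 ± 0.47 from Sca-1Hi (adjusted p = 0.0278) and -1.66 ± 0.44 from Sca-1Lo (adjusted p = 0.0156). All 3 calls were lost without UGE array 1 or UGE array 3 (adjusted p from 0.0581 to 0.100), that against Sca-1Neg also without Sca-1Neg array 3 (-1.22, adjusted p = 0.0555) or 4 (-1.28, adjusted p = 0.0579), and that against Sca-1Hi without Sca-1Hi array 2 (-1.36, adjusted p = 0.105) or 3 (-1.47, adjusted p = 0.0805). The methods' t-test made none of the 3 calls. Against the early adult arrays alone UGE was at -0.82 from Sca-1Neg (adjusted p = 0.124), -1.005 from the single Sca-1Hi array and -1.23 from Sca-1Lo (adjusted p = 0.0455). Against the late ones it was at -2.12, -1.82 and -2.09, all called. A second Gclm probe set was lower in UGE than in Sca-1Neg (-1.01, adjusted p = 0.0163) and Sca-1Lo (-1.02, adjusted p = 0.0185) but not than in Sca-1Hi (-0.23, adjusted p = 0.617).

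Of the glutathione peroxidases, Gpx2 is the epithelial form best known from the gut. Gpx2 (chr12:76792335-76795554) had signals of 96.7, 184 and 93.8 in UGE, 229, 114 and 75.8 in Sca-1Hi, and 134, 119, 149 and 68.2 in Sca-1Lo. The Sca-1Neg arrays read 26.7, 31.3, 115 and 40.5, so that 3 of them lay below all arrays of the other populations and array 3 among them. The differences from Sca-1Neg were 1.42 ± 0.51 in UGE (adjusted p = 0.0538), 1.498 ± 0.51 in Sca-1Hi (adjusted p = 0.0711) and 1.35 ± 0.47 in Sca-1Lo (adjusted p = 0.190), none of them called. With any 1 array but Sca-1Neg array 3 left out, none was called (adjusted p up to 0.213 in UGE, 0.225 in Sca-1Hi and 0.439 in Sca-1Lo). Sca-1Neg array 3 also had the high basal and epithelial marker sums, whose part was not tested. Without that array all 3 were called, at 1.88 (adjusted p = 0.00587), 1.96 (adjusted p = 0.00956) and 1.81 (adjusted p = 0.0195). Within early study numbers, which leave that array out, the difference was 2.98 in Sca-1Hi, from a single Sca-1Hi array, and 2.13 in Sca-1Lo, the latter called. Within late ones it was 0.45 and 0.57, not called.

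Gpx3 encodes the secreted, plasma form of glutathione peroxidase. Gpx3 (chr11:54902854-54910387) read 87.8, 44.9 and 37.2 in UGE. In the adult populations it read 458, 556 and 2857 (Sca-1Hi), 1524, 1606, 730.2 and 1592 (Sca-1Lo), and 941, 749, 4215 and 1272 (Sca-1Neg). Every adult array was above every UGE array, and the adult populations overlapped. UGE differed by -4.72 ± 0.67 from Sca-1Neg (26.4-fold lower, adjusted p = 1.81e-04), by -4.09 ± 0.71 from Sca-1Hi (17.1-fold, adjusted p = 9.50e-04) and by -4.62 ± 0.67 from Sca-1Lo (24.6-fold, adjusted p = 2.29e-04). Without Sca-1Hi array 3, the high one, the difference from Sca-1Hi was -3.26 (adjusted p = 0.00379). All 3 calls held against the late adult arrays alone, and those against Sca-1Neg and Sca-1Lo also against the early ones. In early and late order the differences were -3.99 and -5.46 from Sca-1Neg, and -4.89 and -4.35 from Sca-1Lo. They were -3.12 from the single early Sca-1Hi array and -4.58 from the late ones. The UGE arrays also had lower sums of secretory (at most 479) and smooth muscle markers (at most 2778) than every adult array. The part of these in the Gpx3 values was not tested.

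The alpha class transferases separated. Gsta3 (chr1:21240565-21265575), whose enzyme is known in mice for conjugating the epoxide of aflatoxin, read 103, 231 and 157 in UGE and 1661, 1594 and 1005 in Sca-1Hi. Sca-1Lo read 1046, 578, 1474 and 781, and Sca-1Neg 420.2, 231.3, 898 and 632. Sca-1Hi lay above every Sca-1Neg and UGE array, and UGE below every adult array, with Sca-1Neg array 2 at 231.3 against 230.7 in UGE array 2. The order of the levels was Sca-1Hi, Sca-1Lo, Sca-1Neg and UGE, and of its steps only the last was called. Against Sca-1Neg, Gsta3 was higher in Sca-1Hi (1.52 ± 0.46, adjusted p = 0.0452) and lower in UGE (-1.65 ± 0.46, adjusted p = 0.0163), and at 0.91 ± 0.42 in Sca-1Lo (adjusted p = 0.360). UGE differed by -3.16 ± 0.49 from Sca-1Hi (adjusted p = 3.85e-04) and by -2.56 ± 0.46 from Sca-1Lo (adjusted p = 0.00118).

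The call of Gsta3 in Sca-1Hi against Sca-1Neg was close to the threshold and held in 9 of 22 alternative settings. It was lost without any 1 of the 3 Sca-1Hi arrays or of Sca-1Neg arrays 1, 2 and 4 (adjusted p from 0.0556 to 0.170). Over all 22 settings, with the call held or lost, the difference ran from 0.75 to 2.41. Within early study numbers it was 2.41, from a single Sca-1Hi array, and within late ones 0.75 (adjusted p = 0.321). A second Gsta3 probe set gave 0.89 in that comparison (adjusted p = 0.194), and was called lower in UGE in all 3 comparisons. The call of UGE against Sca-1Neg was lost without UGE array 1 (-1.35, adjusted p = 0.0682) or UGE array 3 (-1.66, adjusted p = 0.0511), by the methods' t-test (adjusted p = 0.130), and against the early Sca-1Neg arrays alone (-1.01, adjusted p = 0.103), while against the late ones it was -2.28 (adjusted p = 0.00884).

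Gsta4 (chr9:78191966-78209349) encodes the transferase that conjugates 4-hydroxynonenal, a toxic product of lipid peroxidation. Its signals were 2696, 4855 and 3297 in UGE and 5619, 5569.8 and 4800.4 in Sca-1Hi, against 1873, 911, 1320.2 and 1389 in Sca-1Neg. Sca-1Lo read 2940, 1769, 3393 and 1938, and overlapped both UGE and Sca-1Neg. No UGE or Sca-1Hi array overlapped Sca-1Neg, and Sca-1Hi also lay above all of Sca-1Lo. Against Sca-1Neg, Gsta4 was higher by 1.999 ± 0.31 in Sca-1Hi (3.997-fold, adjusted p = 0.00172) and by 1.399 ± 0.31 in UGE (2.64-fold, adjusted p = 0.00495), and at 0.86 ± 0.29 in Sca-1Lo (adjusted p = 0.171). It was the 1 gene of the 10 called higher in UGE than in Sca-1Neg, and no step between neighbours in the order Sca-1Hi, UGE, Sca-1Lo, Sca-1Neg was called. Within early study numbers Sca-1Hi, there a single array, differed from Sca-1Neg by 2.10, and within late ones by 1.93 (adjusted p = 0.0262). The difference between Sca-1Hi and Sca-1Lo was 1.14 (95% interval 0.46 to 1.81, adjusted p = 0.300).

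The mu class genes lie close together on chromosome 3. Gstm1 (chr3:108012250-108017973), a main detoxifying transferase of liver and many epithelia, read 787, 901 and 619 in UGE. It read 3299.7, 3293 and 4379.9 in Sca-1Hi, 4700.2, 3304, 5023 and 5705 in Sca-1Lo, and 5705, 3209.9, 4193 and 6768 in Sca-1Neg. UGE stood below all adult arrays, which overlapped each other. UGE differed by -2.65 ± 0.29 from Sca-1Neg (6.28-fold lower, adjusted p = 2.58e-05), -2.25 ± 0.31 from Sca-1Hi (adjusted p = 1.72e-04) and -2.60 ± 0.29 from Sca-1Lo (adjusted p = 2.96e-05). Gstm genes are near copies of each other, and the representative probe set is of the kind whose probes may match other transcripts, so signal of Gstm1 and its relatives may be shared. Of the other 3 Gstm1 probe sets, 2 are not of that kind, and all 3 gave the same calls.

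Gstm5 (chr3:107895854-107898685) was called in no comparison. Its signals ran from 859 to 1019 in UGE, 482 to 945 in Sca-1Hi, 699 to 1388 in Sca-1Lo and 624 to 1100.3 in Sca-1Neg. The difference of UGE from Sca-1Neg was 0.18 (95% interval -0.49 to 0.85), an interval that does not reach the size of the change of Gstm1 in that comparison.

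Gsto1 (chr19:47854973-47864790) encodes an omega class transferase, which acts as a reductase of dehydroascorbate and other substrates. Its signals were 9315, 10719.8 and 10928.5 in Sca-1Hi, above all other arrays. Sca-1Lo read 6252, 2925, 7163 and 5481, UGE 2379, 2774 and 2613, and Sca-1Neg 1498, 1135, 3320.4 and 1005. UGE lay below all Sca-1Hi and Sca-1Lo arrays, and Sca-1Neg array 3 above Sca-1Lo array 2. Gsto1 was higher in Sca-1Hi than in Sca-1Neg by 2.74 ± 0.39 (6.67-fold, adjusted p = 9.79e-04) and in Sca-1Lo by 1.746 ± 0.36 (3.35-fold, adjusted p = 0.0271). UGE was at 0.74 ± 0.39 against Sca-1Neg (adjusted p = 0.176), and was lower than Sca-1Hi by -1.99 ± 0.42 (adjusted p = 0.00329) and at -1.003 ± 0.39 against Sca-1Lo (adjusted p = 0.0806).

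For Gsto1 the order of the levels was Sca-1Hi, Sca-1Lo, UGE and Sca-1Neg, with no step between neighbours called. The call in Sca-1Lo was lost without any 1 of Sca-1Lo arrays 1, 3 and 4 or Sca-1Neg arrays 1, 2 and 4 (1.54 to 1.73, adjusted p from 0.0709 to 0.106), and was kept without Sca-1Neg array 3 (2.11, adjusted p = 0.00159). Without that array UGE was also called higher than Sca-1Neg (1.11, adjusted p = 0.0175). Within early and late study numbers the difference from Sca-1Neg was 2.84 and 2.57 in Sca-1Hi, the early value from a single Sca-1Hi array and the late one called. In Sca-1Lo it was 1.71 and 1.78, neither of them called (adjusted p = 0.0549 and 0.126). A second Gsto1 probe set gave the same calls, with 3.02 in Sca-1Hi and 1.79 in Sca-1Lo against Sca-1Neg.

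**Figure D3:**
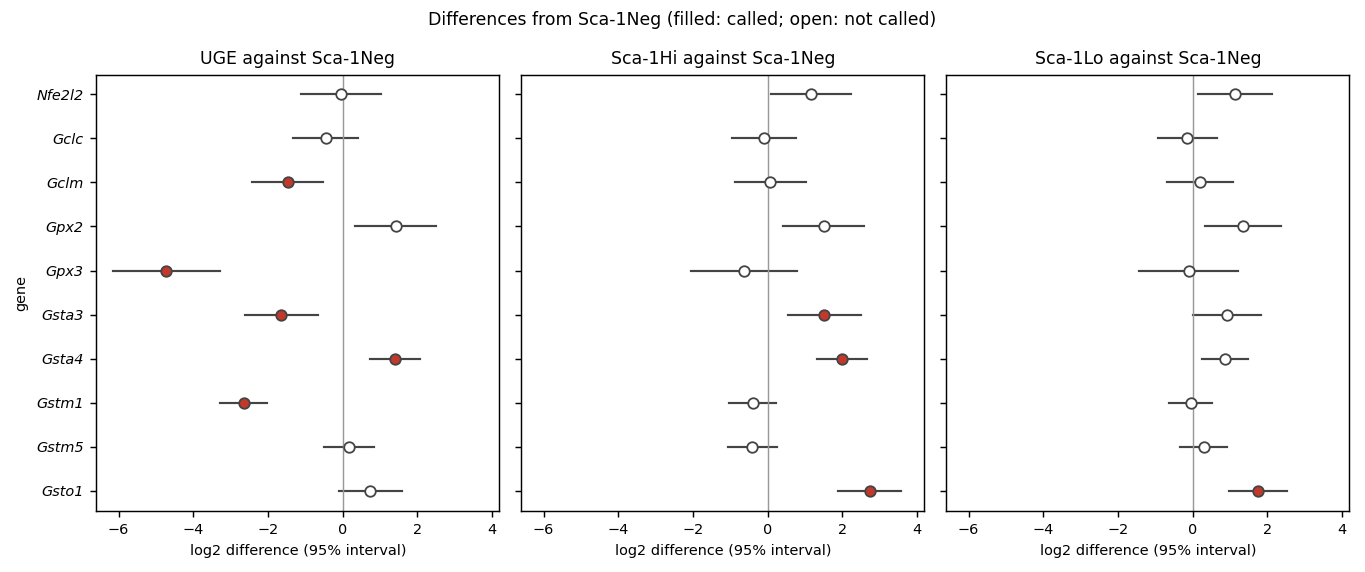
Log2 difference of each gene from Sca-1Neg with its 95% interval, for UGE, Sca-1Hi and Sca-1Lo. Filled points are called and open points are not. Gpx3 is lowest in UGE (-4.72), while Gsta4 is called higher in UGE and Sca-1Hi, and Gsto1 in Sca-1Hi and Sca-1Lo.

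The regulators of Nrf2 and its binding partners were measured as a list of 12 genes. In UGE against Sca-1Neg 2 were higher and 1 lower, in Sca-1Hi 1 was higher, and in Sca-1Lo none was called. For this list and those below, the background over all genes was 16.3% higher and 12.9% lower in UGE. It was 6.11% and 5.21% in Sca-1Hi, and 1.68% and 0.828% in Sca-1Lo, each against Sca-1Neg. Nfe2l3, a cap'n'collar relative of Nrf2, was higher by 3.95 ± 0.68 in UGE (adjusted p = 8.18e-04) and 2.75 ± 0.68 in Sca-1Hi (adjusted p = 0.0196). Bach2, a repressor that pairs with small Maf proteins, was higher in UGE by 1.81 ± 0.48 (adjusted p = 0.0136), and Mafk, such a small Maf protein, was lower (-1.24 ± 0.42, adjusted p = 0.0415). Bach1, a repressor that competes with Nrf2, was higher in UGE than in Sca-1Hi (1.46) and Sca-1Lo (1.18). Keap1 was called in no comparison, with 0.26, 0.40 and 0.34 against Sca-1Neg in UGE, Sca-1Hi and Sca-1Lo.

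Of 17 other genes known as Nrf2 targets, 2 were higher and 3 lower in UGE than in Sca-1Neg, and none was called in Sca-1Hi or Sca-1Lo. Ephx1, the microsomal epoxide hydrolase, was the lowest, at -4.03 ± 0.34 (16.3-fold, adjusted p = 2.51e-06), and was also lower in UGE than in Sca-1Hi (-4.71) and Sca-1Lo (-4.45). Blvrb, which reduces biliverdin, was at -1.52 (adjusted p = 0.00304) and Fth1, the ferritin heavy chain, at -0.809 (adjusted p = 0.0214), close to that limit. Txnrd1, thioredoxin reductase, moved the other way (1.47, adjusted p = 0.00190), as did Tkt, transketolase (1.13, adjusted p = 0.0342). The classic targets Nqo1 and Hmox1 were called in no comparison, with -0.47 and -0.70 in UGE against Sca-1Neg. Both had low signal, with population means of 37.4 to 60.6 for Nqo1 and 36.9 to 62.0 for Hmox1.

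Of 19 other glutathione S-transferases, 4 were higher and 5 lower in UGE than in Sca-1Neg. The largest falls were those of Gstm2 (-3.00, adjusted p = 5.36e-05) and Gstt1 (-2.78, adjusted p = 3.80e-04). Gsto2 and Gstm6 lay at or below a signal of 20 on every UGE array. As bounds, Gsto2 was at least 1.08-fold and Gstm6 at least 1.66-fold lower in UGE than in Sca-1Neg. Both bounds fall short of the log2 limit of 0.807 for a call. The mean signal of Gsto2 in Sca-1Neg was 20.6, itself near the floor. Mgst1, the microsomal transferase, was higher than in Sca-1Neg in all 3 populations, by 1.98 ± 0.43 in UGE, 1.76 ± 0.43 in Sca-1Hi and 1.80 ± 0.40 in Sca-1Lo (adjusted p = 0.00421, 0.0195 and 0.0367). In Sca-1Hi Mgst1 was the 1 gene higher and Gstm2 the 1 lower (-1.46, adjusted p = 0.0205), and in Sca-1Lo Gsto2 (1.41, adjusted p = 0.0343) and Mgst1 were higher. None of 5 other glutathione peroxidases was called by limma in any comparison, and Gpx1, the main cytosolic form, was at -0.63 in UGE against Sca-1Neg (adjusted p = 0.0709).

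Of 21 genes of glutathione synthesis, reduction and breakdown, 5 were lower and none higher in UGE than in Sca-1Neg. They were Cbs, Dpep1, Hagh, Ggt7 and Anpep. Cbs, which opens the transsulfuration route to cysteine, was at -4.21 ± 0.52 (adjusted p = 6.13e-05). Dpep1, a dipeptidase, was at -1.99 and Hagh, a glyoxalase, at -1.31. For Ggt7 and Anpep every UGE array lay at or below a signal of 20. As bounds, Ggt7 was at least 2.07-fold and Anpep at least 1.71-fold lower in UGE than in Sca-1Neg. The bound of Anpep falls short of the log2 limit of 0.807 for a call. Slc7a11, a subunit of the cystine importer, and Slc3a2, its other subunit, were lower in UGE than in Sca-1Hi (-1.70 and -1.68) and Sca-1Lo (-1.30 and -1.72). In Sca-1Hi against Sca-1Neg Glrx3 was higher (1.04) and Glrx (-1.51) and Ggt7 (-1.08) lower, and in Sca-1Lo none was called. The mean signal of Ggt7 in Sca-1Hi was 20.5, near the floor. Of 13 other antioxidant enzymes, 2 were higher (Txnrd1, Prdx2) and 4 lower (Sod2, Sod3, Prdx3, Txnrd2) in UGE. Sod3, the extracellular superoxide dismutase, lay below 20 on every UGE array and was at least 64.4-fold lower there than in Sca-1Neg (adjusted p = 1.78e-06), and was also lower in Sca-1Hi (-2.79, adjusted p = 0.0248).

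**Figure D4:**
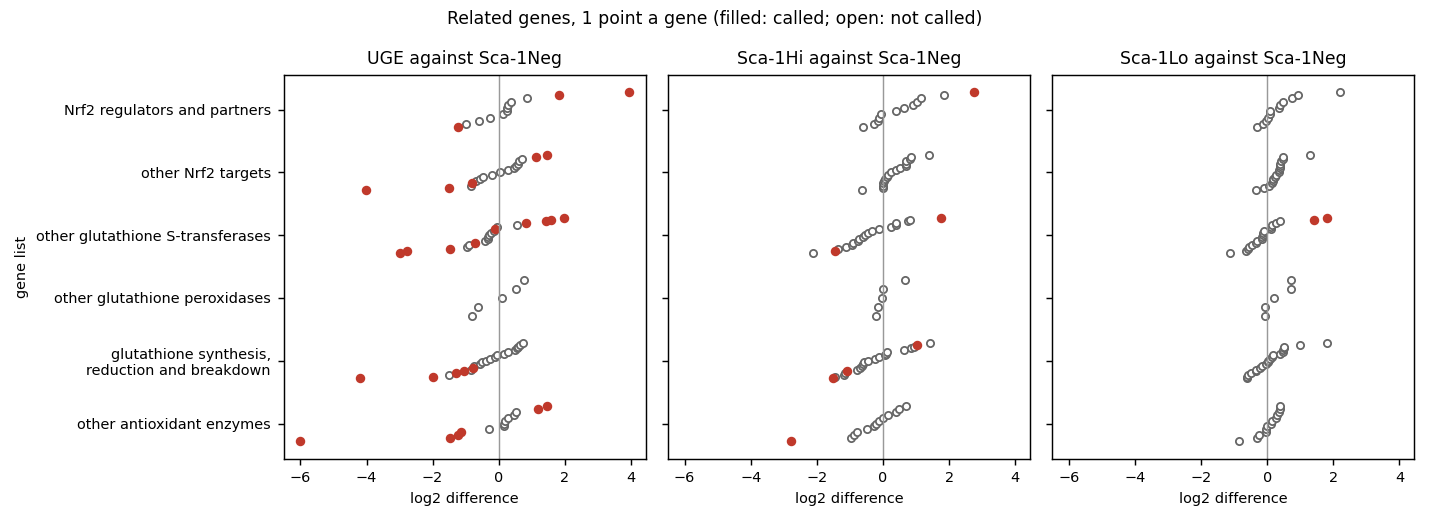
Log2 difference from Sca-1Neg of the genes of 6 related lists, 1 point a gene, filled where called, for UGE, Sca-1Hi and Sca-1Lo. A point is drawn at the bound against 20 where all arrays of a population lie at or below 20 or their mean lies below it. Sod3 in UGE is such a point. Most calls lie in UGE, on both sides of 0.

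The genes whose log2 signals followed those of a called gene most closely over the 14 arrays are given as a description. They were Degs1 (Pearson r = 0.989), Mir22hg (0.977) and Ninj1 (0.972) for Gstm1, Eps8 (0.980), Arrdc4 (0.974) and Rab27a (0.962) for Gsta3, and Sox9 (0.968), Edn1 (0.956) and Fam47e (0.954) for Gsto1. For Gclm they were Ctso (0.972), Ngly1 (0.967) and Wdr45 (0.965), for Gpx3 C1ra (0.964), Mgll (0.961) and Txk (0.960), and for Gsta4 Bend6 (0.963), Tlcd3a (0.953) and Ptpru (0.949). Among the 10 genes themselves the closest pair was Gpx3 and Gstm1 (0.899), followed by Gclm and Gsta3 (0.841). Each r is taken over the same 14 arrays of 4 populations, which share differences in cell mixture.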

How the data were processed

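Expression of 4 mouse prostate cell populations was measured on 14 Affymetrix MOE430 2.0 arrays from 20 ng of RNA after two-cycle labelling. The deposited intensity values, linear PLIER signals, were made by the authors in ArrayAssist from the CEL files. The step that normalized between arrays is not given in the sources used here. Of 45101 probe sets, 64 array controls and those never above a signal of 20 were left out, and 41031 were tested on the log2 scale without an added constant. The platform annotation named 1 gene for 34958 probe sets, several for 932 and none for 9211. One fit of the 4 group means was made with limma 3.58.1 in R 4.3.3 (lmFit, eBayes), for 6 comparisons. P-values were adjusted by Benjamini-Hochberg over all probe sets. A change is given as a bound, with signals raised to 20, where a population has no array above 20. The method was tested on simulated data. Python 3.11.15 (pandas 2.3.3, matplotlib 3.10.9) served for sequences and figures.

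The genes, the related lists and the markers were chosen with earlier results of these data known. Named are the 10 genes, called genes of the related lists, and up to 3 genes most alike to a called gene. Most of the called list genes are among the 4 of largest change in their list and a comparison, but not all such genes are named. Fth1, Hagh, Gstm6 and Prdx3 were called but are not among those 4. Keap1, Nqo1, Hmox1 and Gpx1 are single genes of a list chosen after their values were seen. Replicate numbers of the labels were taken as pairing Sca-1Lo with Sca-1Neg, where the deviations of same-numbered arrays from their group means correlated at 0.124 to 0.558, and not elsewhere (-0.451 to 0.505). Sca-1Hi arrays 1 and 3, but not 2, carry the study numbers of the same-numbered Sca-1Lo and Sca-1Neg arrays. For arrays 1 and 3 of Sca-1Hi these correlations were 0.505 and 0.284 with Sca-1Lo, and 0.356 and -0.057 with Sca-1Neg. The main fit treated all arrays as unpaired. A pairing of Sca-1Hi, or of Sca-1Lo with Sca-1Neg alone, was not tested. Study numbers of the arrays came from the column names of a supplementary table, joined by matching values. No 2 arrays held identical values. Precision is limited by 3 or 4 arrays a population. Alternatives were no filter, a filter on 3 arrays, a constant of 16, quantile normalization, the methods' t-test, arrays centred on their 75th percentile, only the groups compared, the replicate block, blocks and subsets by study number, no fold minimum, a trended robust fit, array weights, the mean of a gene's probe sets, and each array left out.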

Additional observations from a re-analysis of the deposited data

Results flagged for a closer look

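The signal of Gpx3 in Sca-1Lo replicate 3 was 730.2, far from the other 3 Sca-1Lo arrays, the nearest of which read 1524. Its gap was 0.934 of the range of the 4 arrays, past the limit of Dixon's outlier test. In all, 20 sets of 4 arrays were examined, and chance marks about 1 in 20.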

How the results depend on the processing

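None of the 10 genes' calls reversed under any alternative. The calls of Gstm1 in its 3 comparisons with UGE, of Gpx3 in UGE against Sca-1Neg and Sca-1Lo, of Gsta3 in UGE against Sca-1Hi and Sca-1Lo, and of Gsto1 in UGE against Sca-1Hi held in every alternative run. By the methods' t-test the number of the 10 genes called was 2 in UGE against Sca-1Neg, 0 in Sca-1Hi and 0 in Sca-1Lo against Sca-1Neg, and 3 in UGE against Sca-1Hi. For Sca-1Lo against Sca-1Neg it was 0 with only these groups in the fit, 2 with early and late study numbers as a block, and 0 in the late arrays alone. Array weights, whose estimation stopped before it converged, gave 5 in Sca-1Hi and 4 in Sca-1Lo. Leaving out 1 array gave 0 to 2 in Sca-1Lo and 3 to 6 in UGE against Sca-1Neg, 3 to 6 in UGE against Sca-1Lo, 4 to 5 in UGE against Sca-1Hi and 2 to 4 in Sca-1Hi against Sca-1Neg. The replicate block ended the call of Gsta3 in Sca-1Hi (1.54, adjusted p = 0.0646 in limma). It added that of Gsto1 in UGE against Sca-1Lo (-1.09, adjusted p = 0.0487) and changed no other call of the 10 genes. That block also joined UGE and Sca-1Hi arrays to same-numbered arrays with which they were not taken as paired. It was thus no paired test of Sca-1Lo against Sca-1Neg, and the effect of that pairing on the calls was not tested. Nfe2l2 was called lower in UGE than in Sca-1Hi and Sca-1Lo under quantile normalization (-1.42 and -1.35) and centring on the 75th percentile (-1.36 and -1.35). The cause of these changes was not tested.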
